A study of Rattus norvegicus with 6 samples.

Results

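The tumour necrosis factor (TNF) superfamily is a group of secreted or membrane-bound ligands, active as trimers, with matching receptors. Ligand binding gathers receptors on the cell surface. Receptors with a death domain can lead to cell death through the adaptors Tradd and Fadd and the protease Casp8, and many receptors bind Traf proteins, which lead to NF-kappaB, a transcription factor family. In barrier tissues the family is known for lymphocyte survival, for inflammatory signals between epithelium and immune cells and, around the teeth, for control of the bone-resorbing osteoclast. Its genes were taken by symbol: all names that begin with Tnfsf or Tnfrsf, together with Lta, Ltb, Ltbr, Fas, Faslg, Cd27, Cd40, Cd40lg, Cd70 and Eda2r where listed. This gave 27 of 14405 listed protein-coding genes, 8 ligands and 19 receptors.

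RNA was sequenced from the dorsal epithelium of the rat tongue. The series places the tissue at the circumvallate papilla, a large papilla far back on the tongue that is rich in taste buds. The control group was 3 libraries from rats without periodontitis, and the other group was 3 libraries from rats with chronic periodontitis, a lasting inflammation of the tissue around the teeth. The labels give no strain, age, sex or method of inducing the disease, nor whether libraries come from separate animals, so p-values measure only the spread between libraries, part of which may be technical. Values are FPKM, mapped fragments scaled by transcript length and library size, so that levels of different genes can be compared. Depth is unknown.

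All 10 taste cell markers were listed and none was at 0 in any library. Their FPKM sum was 187 to 211 in controls and 142 to 199 in periodontitis. Genes of other tissue were also present: the sum of 4 von Ebner gland genes was 159963 to 185414 FPKM in controls and 95541 to 268173 FPKM in periodontitis. The 9 listed skeletal muscle markers summed to 3246 to 4544 FPKM in controls and 938 to 2930 FPKM in periodontitis. In such bulk tissue, fewer cells of a type and less RNA per cell cannot be told apart.

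A gene was tested if it had at least 1 FPKM in at least 3 libraries, which held for 21 of the 27 genes (6 ligands and 15 receptors). Among them 0 differed between periodontitis and control at a limma adjusted p under 0.05, and 0 had an unadjusted p under 0.05. Over all 13154 tested genes the called share was 0% at the adjusted threshold and 2.11% at the unadjusted 0.05. The smallest unadjusted p among the members, 0.0699, belonged to Tnfsf13b, and each of the 21 had an adjusted p that rounded to 1.0.

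**Figure D1:**
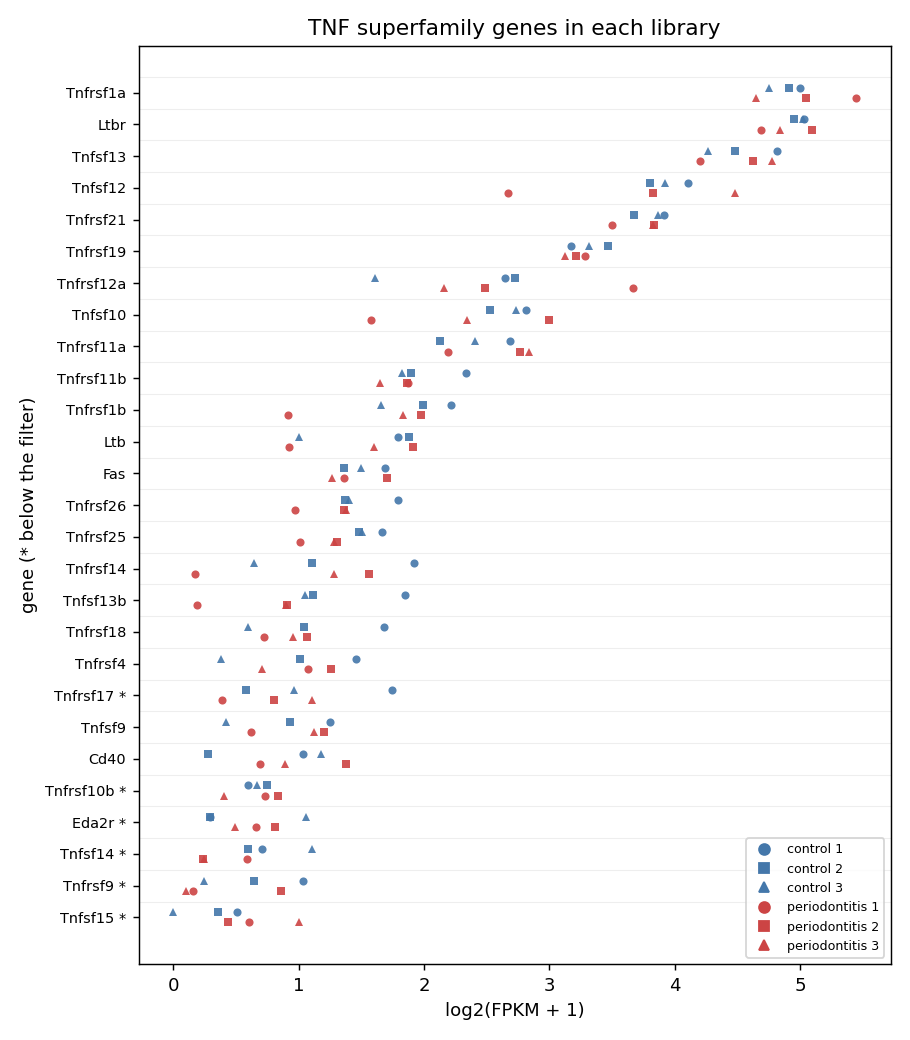
Level of each of the 27 TNF superfamily genes (y axis, in order of the mean over 6 libraries) as log2(FPKM + 1) (x axis). Each symbol is 1 library, blue for control and red for periodontitis, and an asterisk marks the 6 genes that were not tested. Tnfrsf1a, Ltbr and Tnfsf13 are at the top, and symbols of the groups overlap for most genes.

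The order of levels was led by 5 genes. Tnfrsf1a, the death-domain receptor of TNF, had 31.0, 29.1 and 25.9 FPKM in controls 1 to 3 and 42.6, 32.0 and 24.0 FPKM in periodontitis 1 to 3. Ltbr, the receptor of lymphotoxin beta known for its part in lymphoid tissue, had 31.6, 29.9 and 31.5 FPKM in controls and 24.7, 33.1 and 27.6 FPKM in periodontitis, with a log2 fold change of -0.13 ± 0.17 (SE, limma). They stood above 83.9% and 83.5% of listed genes by their mean over the 6 libraries, and Ltbr was the highest member in every library except periodontitis 1, where Tnfrsf1a was.

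Next came the ligand Tnfsf13 (APRIL), a survival factor of plasma cells, with 27.2, 21.3 and 18.3 FPKM in controls and 17.4, 23.6 and 26.4 FPKM in periodontitis. Its groups overlapped, and its log2 fold change was 0.01 ± 0.22 (SE, limma). Tnfsf12 (TWEAK), a ligand with effects on tissue repair, had 16.2, 13.0 and 14.2 FPKM in controls and 5.35, 13.2 and 21.3 FPKM in periodontitis. Tnfrsf21, death receptor 6, had 14.1, 11.8 and 13.6 FPKM in controls and 10.3, 13.2 and 13.2 FPKM in periodontitis. The 6-library ranges of neighbours in this order overlapped in all but 1 of 26 cases, the step from Tnfrsf21 (at least 10.3 FPKM) to Tnfrsf19 (at most 10.1 FPKM). Most of the family was low: 7 of the 21 tested members (33.3%) had a mean of at least 5 FPKM, a level reached by 68.1% of all tested genes.

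Of the 21 tested members, 14 (66.7%) had a lower mean in periodontitis, beside 57.4% of all tested genes. These were 4 of 6 ligands and 10 of 15 receptors. The median log2 fold change of the tested members was -0.12, beside -0.03 over all tested genes. A fold change here is the periodontitis mean less the control mean of log2(FPKM + 1), and the added 1 shrinks it for genes of low level. The median turned positive without control 1 and stayed negative with any other single library left out. Without control 1, 10 of 21 members were lower (54.6% of all genes), with a median of 0.02. Without periodontitis 1, 12 of 21 were lower (55.6% of all genes), with a median of -0.02. With both of these libraries left out, 6 of 21 were lower (52.7% of all genes) and the median was 0.08. With periodontitis 2 as the only periodontitis library, 7 of 21 were lower (31.9% of all genes). After quantile normalization 12 of 21 members and 45.6% of all genes were lower.

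**Figure D2:**
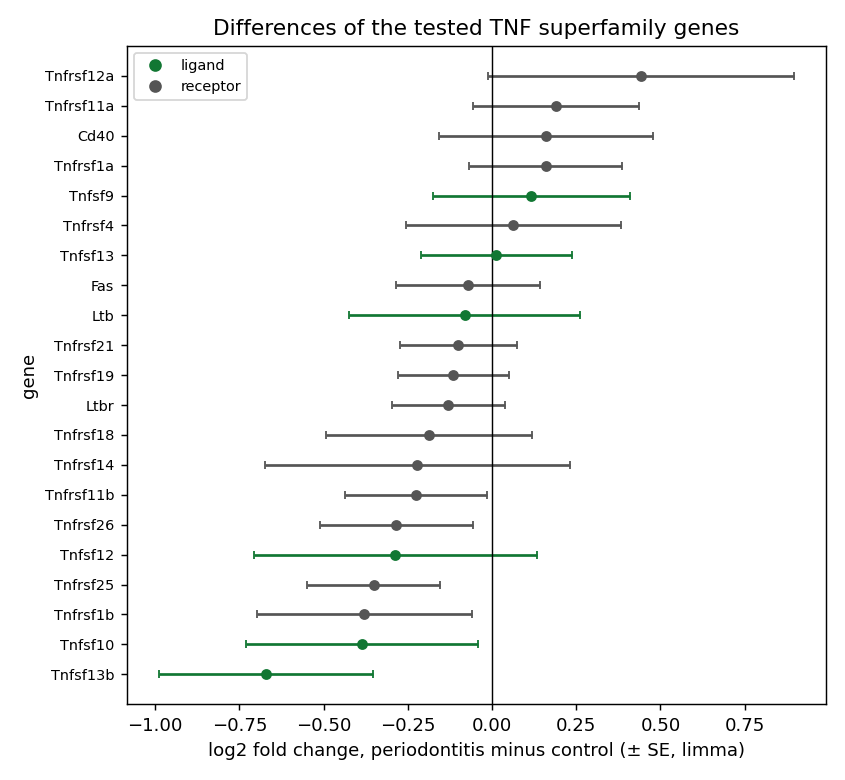
Log2 fold change of each of the 21 tested members (x axis, periodontitis minus control, bars are the limma SE), in order of size on the y axis, with ligands in green and receptors in grey. Estimates run from -0.67 for Tnfsf13b to 0.44 for Tnfrsf12a, and no gene passed the threshold.

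In 2 of the 21 tested members the groups did not overlap, Tnfsf13b and Tnfrsf25, and in both the 3 periodontitis libraries lay below the 3 controls. Over all tested genes, groups without overlap made up 5.56%, and those lower in periodontitis 3.59%. Tnfsf13b (BAFF), a survival factor of B cells, lies on chromosome 16 (85275678 to 85306366 in the deposited tables). It had 2.61, 1.16 and 1.07 FPKM in controls and 0.144, 0.874 and 0.869 FPKM in periodontitis. The means were 1.61 ± 0.861 and 0.629 ± 0.420 FPKM (SD, n = 3 each), and the log2 fold change was -0.67 ± 0.32 (SE, limma). All 3 controls and 0 periodontitis libraries reached 1 FPKM, so Tnfsf13b entered the test only through the group where it was higher, and its separation was in part fixed by the filter. Its log2 fold change was -0.41 without control 1, -0.43 without periodontitis 1 and -0.78 to -0.81 with any other single library left out. It was -1.37 with a pseudocount of 0.1, and after quantile normalization its groups overlapped.

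Tnfrsf25 (death receptor 3), which T cells carry as the receptor of Tnfsf15, lies on chromosome 5 (169288871 to 169293137). It had 2.17, 1.79 and 1.84 FPKM in controls and 1.01, 1.48 and 1.43 FPKM in periodontitis. Periodontitis 1 was the lowest library, and periodontitis 2 and 3 lay just under the lowest control. The means were 1.93 ± 0.211 and 1.31 ± 0.257 FPKM (SD, n = 3 each), with a log2 fold change of -0.35 ± 0.20 (SE, limma) and an unadjusted p of 0.116. With libraries rescaled without the 4 gland genes its groups overlapped. T cell markers moved with it in part: their FPKM sum (7 of 8 listed) was 12.1 to 23.9 in controls, 9.40 and 8.73 in periodontitis 1 and 3, and 24.5 in periodontitis 2. Their part in the Tnfrsf25 values was not tested.

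Promoter sequences are shown for these 2 genes and for Tnfrsf12a and Tnfrsf1a, the 2 tested members that were highest of 6 libraries in periodontitis 1. They were chosen after the values were seen. Each is the 250 bases before the start of the gene, 5′ to 3′ on the gene's strand, from RefSeq on build GRCr8 (a build that may differ from that of the deposited positions). Promoters were found by symbol for 19 of the 27 members. Motifs were searched on both strands: the kappaB consensus, the AP-1 site (with the letters TGANTCA), the GC box (which reads GGGCGG where it is found) and the TATA box (spelled TATAAA in this search). Capitals mark every match.
Tnfsf13b, chr16:86194500-86194749, minus strand: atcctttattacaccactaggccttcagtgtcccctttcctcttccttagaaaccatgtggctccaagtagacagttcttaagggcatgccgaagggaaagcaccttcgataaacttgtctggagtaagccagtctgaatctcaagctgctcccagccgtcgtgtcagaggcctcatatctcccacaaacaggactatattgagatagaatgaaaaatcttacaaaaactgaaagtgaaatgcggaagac
Tnfrsf25, chr5:167904536-167904785, plus strand: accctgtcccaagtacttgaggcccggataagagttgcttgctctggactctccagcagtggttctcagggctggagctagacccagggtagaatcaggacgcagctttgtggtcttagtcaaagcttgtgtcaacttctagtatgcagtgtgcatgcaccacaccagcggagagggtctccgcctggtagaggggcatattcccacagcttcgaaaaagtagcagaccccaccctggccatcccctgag
Tnfrsf12a, chr10:13213649-13213898, minus strand: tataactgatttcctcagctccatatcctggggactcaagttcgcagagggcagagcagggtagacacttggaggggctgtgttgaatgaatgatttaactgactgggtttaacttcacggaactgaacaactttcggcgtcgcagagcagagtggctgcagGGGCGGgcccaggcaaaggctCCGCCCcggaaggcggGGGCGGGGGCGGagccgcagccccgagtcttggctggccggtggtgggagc
Tnfrsf1a, chr4:159836869-159837118, plus strand: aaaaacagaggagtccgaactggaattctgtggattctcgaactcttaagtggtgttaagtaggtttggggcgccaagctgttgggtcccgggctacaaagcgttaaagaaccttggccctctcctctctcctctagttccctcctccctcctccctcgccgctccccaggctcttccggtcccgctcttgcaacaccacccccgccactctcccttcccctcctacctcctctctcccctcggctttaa

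Tnfrsf12a had 4 GC boxes and none of the other motifs. The windows of Tnfsf13b, Tnfrsf25 and Tnfrsf1a held none of the 4 motifs. GC content was 45.2% for Tnfsf13b, 55.6% for Tnfrsf25, 60.8% for Tnfrsf12a and 57.6% for Tnfrsf1a, beside a median of 51.2% over 33469 promoter windows. The kappaB consensus was in 3 of 19 member promoters (Fas, Ltb and Tnfsf14) and in 6.33% of all windows. The GC box was in 10 of 19 and 30.5%, AP-1 in 2 of 19 (Fas and Tnfrsf1b) and 6.34%, and the TATA box in 3 of 19 (Eda2r, Tnfrsf17 and Tnfsf15) and 12.9%. A match is a string of letters and shows no bound factor.

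Of the periodontitis libraries, number 1 had the member median farthest from the control mean. Periodontitis 1 was the lowest of the 6 libraries for 11 of 21 tested members (52.4%), beside 34.7% of all tested genes, and the highest for 2, beside 27.8%. Its median over the members was -0.32 relative to the control mean on the log2(FPKM + 1) scale, beside -0.04 over all tested genes. Periodontitis 2 had 0.10 on both, and periodontitis 3 had -0.15 on both. The number of members at 1 FPKM or more was 13 in periodontitis 1, against 19 to 23 in controls and 20 and 19 in periodontitis 2 and 3. Over all listed genes, 218 were at 0 in periodontitis 1, against 72 to 124 in controls and 71 and 174 in periodontitis 2 and 3.

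**Figure D3:**
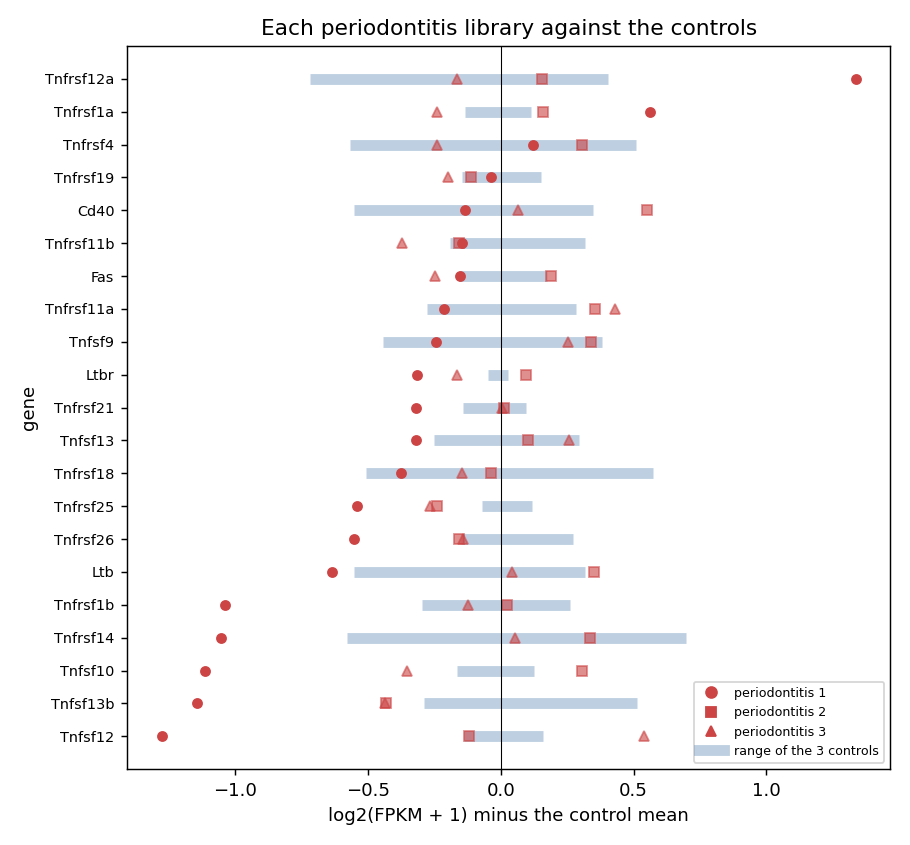
Each periodontitis library against the controls for the 21 tested members (y axis), as log2(FPKM + 1) minus the control mean (x axis). Red symbols are the periodontitis libraries and the blue bar spans the 3 controls. Periodontitis 1 (circles) lies below the bar for 11 genes and above it for Tnfrsf12a and Tnfrsf1a.

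Both members that were highest in periodontitis 1 were receptors. Tnfrsf12a (Fn14), the receptor of Tnfsf12 and known to be induced in injured tissue, had 5.25, 5.63 and 2.05 FPKM in controls and 11.7, 4.59 and 3.47 FPKM in periodontitis. Only periodontitis 1 lay outside the control range, and the log2 fold change of 0.44 ± 0.45 (SE, limma) was -0.01 without that library. For Tnfrsf1a, whose 42.6 FPKM in periodontitis 1 was 1.49 times the control mean, the log2 fold change was 0.16 ± 0.23 (SE, limma), and -0.04 without periodontitis 1. The keratinocyte lists were also highest there: basal keratinocyte markers summed to 2487 FPKM against 1257 to 1624 in controls, and cornified epithelium markers to 3078 FPKM against 1132 to 1523. Their part in the 2 receptor values was not tested.

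On the low side, Tnfrsf14 (HVEM), a receptor on lymphocytes and other cells, had 2.79, 1.16 and 0.565 FPKM in controls and 0.127, 1.95 and 1.43 FPKM in periodontitis. Tnfrsf1b, the TNF receptor without a death domain that is common on immune and endothelial cells, had 3.64, 2.98 and 2.15 FPKM in controls and 0.889, 2.94 and 2.56 FPKM in periodontitis. Tnfsf10 (TRAIL), a death ligand, had 6.03, 4.76 and 5.64 FPKM in controls and 1.98, 6.98 and 4.06 FPKM in periodontitis. In each of these 3 genes periodontitis 1 was the lowest library, and periodontitis 2 lay within or above the control range. The log2 fold changes of Tnfrsf14, Tnfrsf1b and Tnfsf10 were -0.22 ± 0.45, -0.38 ± 0.32 and -0.39 ± 0.34 (SE, limma), and without periodontitis 1 they were 0.19, -0.05 and -0.02.

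Tnfsf12 in periodontitis 1 had 0.370 times the control mean FPKM, while periodontitis 3 was its highest library. The log2 fold change was -0.29 ± 0.42 (SE, limma), and 0.21 without periodontitis 1. Tnfsf12 and its receptor Tnfrsf12a stood in different ratios: 3.08, 2.30 and 6.91 in controls 1 to 3 and 0.458, 2.87 and 6.14 in periodontitis 1 to 3 (FPKM of ligand over receptor). Periodontitis 1 was the 1 library with more receptor than ligand. Tnfsf12 and Tnfsf13 lie on the same strand of chromosome 10, 827 bases apart (56290780 to 56300077 and 56286887 to 56289952), and a transcript that joins them is known in human. How reads of such a transcript would be divided between the genes is not stated in the labels or tables. Tnfsf13 had 1.29 to 1.68 times the FPKM of Tnfsf12 in controls and 3.25, 1.80 and 1.24 times in periodontitis 1 to 3.

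Cell type markers differed between the same libraries, and not only those of immune cells. The 5 listed fibroblast markers summed to 471 FPKM in periodontitis 1 against 1120 to 1226 in controls. The 6 Schwann cell markers summed to 41.6 FPKM there against 125 to 172, and the skeletal muscle sum given above was also lowest there. The sum of the 3 listed neutrophil markers differed in direction between periodontitis libraries, with 211, 502 and 75.5 FPKM in periodontitis 1 to 3 against 80.6 to 138 in controls. In periodontitis 1 the 10 macrophage markers summed to 109 FPKM against 166 to 252 in controls, the 7 dendritic cell and MHC class II markers to 214 against 437 to 589, and the 4 listed plasma cell markers to 189 against 344 to 648. In periodontitis 2 these sums were 195, 489 and 469 FPKM, within the control ranges. In periodontitis 3 they were 136 and 336 FPKM for macrophage and dendritic cell markers, below all controls, and 609 FPKM for plasma cell markers, within the control range. Control 1 stood at the other end. It was the highest of the 6 libraries for 11 of the 21 members, beside 10.7% of all tested genes, and the lowest for 0. Its T cell sum was 23.9 FPKM against 12.3 and 12.1 in controls 2 and 3, but periodontitis 2 was higher still, with 24.5 FPKM. Its B cell sum (4 of 6 markers listed, 2 tested) was 14.2 FPKM against 1.43 and 1.501 in controls 2 and 3. In periodontitis 1 to 3 the B cell sum was 2.58, 7.59 and 6.93 FPKM. The part of these cell types in the member values was not tested.

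**Figure D4:**
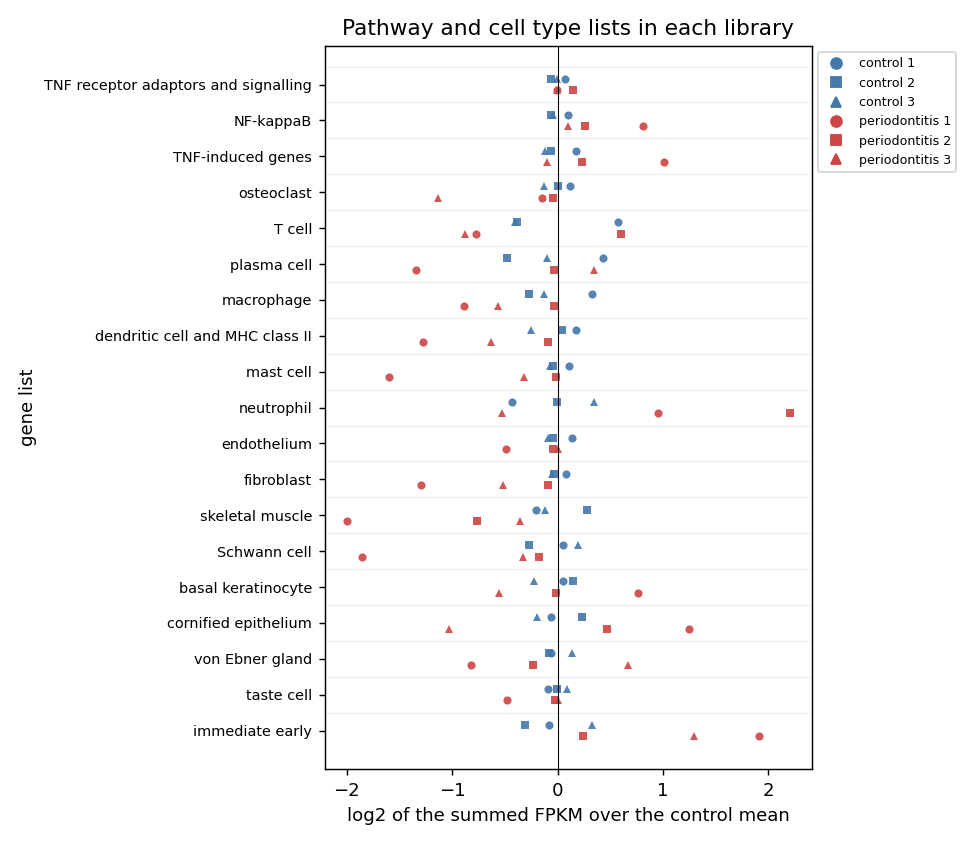
Summed FPKM of each pathway or cell type list (y axis) as log2 of its ratio to the control mean (x axis), for lists with at least 3 tested genes. Each symbol is 1 library. Periodontitis 1 (red circles) is the lowest library for the macrophage, dendritic cell, mast cell and plasma cell lists. It is also the lowest for the fibroblast, endothelium, skeletal muscle, Schwann cell, von Ebner gland and taste cell lists. It is the highest for both keratinocyte lists, and in the neutrophil list it lies above all controls.

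Ltb, Tnfrsf18, Tnfrsf4, Cd40 and Tnfsf9, which are linked to lymphocytes, had overlapping groups. Ltb, lymphotoxin beta, the ligand of Ltbr, had 2.47, 2.68 and 1.01 FPKM in controls and 0.900, 2.76 and 2.04 FPKM in periodontitis, with a log2 fold change of -0.08 ± 0.34 (SE, limma). Tnfrsf18 (GITR) and Tnfrsf4 (OX40), T cell costimulatory receptors that lie 9879 bases apart on chromosome 5, were both highest in control 1 and lowest in control 3. Tnfrsf18 ran from 0.512 to 2.20 FPKM in controls and from 0.657 to 1.10 FPKM in periodontitis, and Tnfrsf4 from 0.304 to 1.75 FPKM and from 0.638 to 1.39 FPKM. Cd40, through which T cells activate B cells and macrophages, had 1.05, 0.213 and 1.26 FPKM in controls and 0.619, 1.61 and 0.860 FPKM in periodontitis (log2 fold change 0.16 ± 0.32, SE, limma). Tnfsf9, the ligand of the costimulatory receptor Tnfrsf9, ran from 0.338 to 1.38 FPKM in controls and from 0.536 to 1.31 FPKM in periodontitis.

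The groups also overlapped for the receptors Fas, Tnfrsf19, Tnfrsf21 and Tnfrsf26. Fas, the classical death receptor, had 2.23, 1.57 and 1.83 FPKM in controls and 1.57, 2.26 and 1.41 FPKM in periodontitis (log2 fold change -0.07 ± 0.21, SE, limma). Tnfrsf19 (TROY), known from epithelial progenitors, ran from 8.03 to 10.1 FPKM in controls and from 7.70 to 8.75 FPKM in periodontitis, with a log2 fold change of -0.12 ± 0.16 (SE, limma). Tnfrsf21 had a log2 fold change of -0.10 ± 0.17 (SE, limma). Tnfrsf26, a receptor of the family, had 2.46, 1.59 and 1.64 FPKM in controls and 0.957, 1.57 and 1.60 FPKM in periodontitis, with a log2 fold change of -0.28 ± 0.23 (SE, limma).

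The bone-linked pair was measured on the receptor side. Tnfrsf11a (RANK), through which osteoclast precursors mature, had 5.45, 3.37 and 4.29 FPKM in controls and 3.57, 5.78 and 6.14 FPKM in periodontitis. Periodontitis 2 and 3 lay above all controls and periodontitis 1 within their range, with a log2 fold change of 0.19 ± 0.25 (SE, limma), which ran from 0.05 without control 2 to 0.39 without periodontitis 1. Tnfrsf11b (osteoprotegerin), the decoy receptor that withholds the RANK ligand, had 4.04, 2.72 and 2.55 FPKM in controls and 2.66, 2.63 and 2.13 FPKM in periodontitis. Its groups overlapped, and the log2 fold change was -0.23 ± 0.21 (SE, limma), and -0.07 without control 1. The ligand of these receptors was not analysed here. Of 7 osteoclast genes 3 were listed. Acp5 and Nfatc1 had log2 fold changes of -0.31 and -0.12. Ctsk, a matrix-degrading protease that other cells also make, had 20.9, 17.9 and 19.8 FPKM in controls and 7.39, 14.1 and 10.2 FPKM in periodontitis. Its groups did not overlap, beside 3.59% of all tested genes lower without overlap. The log2 fold change was -0.87 ± 0.23 (SE, limma unadjusted p 0.00678, adjusted p rounding to 1.0). An unadjusted p under 0.05 was found in 2.11% of all tested genes.

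There were 6 members with at least 1 FPKM in fewer than 3 libraries, which were not tested. Tnfrsf17 (BCMA), the plasma cell receptor of Tnfsf13 and Tnfsf13b, had 2.35, 0.497 and 0.946 FPKM in controls and 0.307, 0.746 and 1.16 FPKM in periodontitis. The summed level of the plasma cell markers was also highest in control 1 and lowest in periodontitis 1, although Xbp1 and Derl3 among them were highest in periodontitis 3. Tnfsf14 (LIGHT), a ligand of Tnfrsf14 and Ltbr, had 0.637, 0.510 and 1.16 FPKM in controls and 0.500, 0.181 and 0.187 FPKM in periodontitis, without overlap. With no filter, 3 of 27 members had groups without overlap, all lower, beside 3.83% of 14405 genes. Tnfsf15 (TL1A), the ligand of Tnfrsf25, was listed at 0 in control 3 and had at most 0.421 FPKM in the other controls and 0.358 to 1.0 FPKM in periodontitis. Tnfrsf9 (4-1BB) had 0.0764 to 1.05 FPKM over the 6 libraries, Eda2r, a receptor of ectodysplasin, 0.225 to 1.09 FPKM, and Tnfrsf10b, the TRAIL death receptor, 0.325 to 0.790 FPKM.

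The pathway downstream of the receptors was read from 3 further lists. Of 29 genes of TNF receptor adaptors and signalling, all tested, 0 passed the adjusted threshold and 0 had an unadjusted p under 0.05. There were 16 with a higher and 13 with a lower mean in periodontitis (44.8% lower, beside 57.4% of all tested genes). After quantile normalization 24.1% were lower, beside 45.6% of all tested genes. The median log2 fold change was 0.02. The smallest p values belonged to Traf5 (-0.31 ± 0.20), Cflar (0.25 ± 0.16), Map3k14 (-0.30 ± 0.23) and Traf1 (-0.27 ± 0.23, all log2 fold change ± SE, limma). Cflar, an inhibitor of Casp8, had 14.5, 13.4 and 14.1 FPKM in controls and 14.9, 16.8 and 19.2 FPKM in periodontitis, each above all controls. Traf1, itself an NF-kappaB target, had 1.93, 1.96 and 1.91 FPKM in controls and 0.838, 1.88 and 1.71 FPKM in periodontitis, each below all controls. Among the 29 genes, 1 lay wholly above and 1 wholly below the controls, beside 5.56% of all tested genes without overlap in either direction. The summed level of the list was 236 to 257 FPKM in controls and 245 to 272 FPKM in periodontitis.

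Among 12 NF-kappaB genes 0 passed and 8 had a higher mean, beside 42.6% of all tested genes. The median log2 fold change was 0.10, beside -0.03 over all tested genes. Relative to the control mean, the list median was 0.25, 0.26 and -0.02 in periodontitis 1 to 3. Nfkbia, the inhibitor of NF-kappaB that is itself induced by it, had 90.2, 85.6 and 80.5 FPKM in controls and 217, 109 and 103 FPKM in periodontitis. All 3 periodontitis libraries lay above the controls, and the log2 fold change was 0.65 ± 0.30 (SE, limma adjusted p rounding to 1.0). The next smallest p values belonged to Ikbkg (0.34 ± 0.19), Rel (0.43 ± 0.39) and Bcl3 (0.36 ± 0.34, all log2 fold change ± SE, limma), whose groups overlapped. Ikbkb, a kinase that acts on that inhibitor and was chosen after its values were seen, was above the controls in each periodontitis library (13.7 to 15.1 against 12.7 to 13.2 FPKM). Its log2 fold change was 0.16 ± 0.15 (SE, limma). Nfkbia and Ikbkb were the 2 of 12 genes without overlap, beside 5.56% of all tested genes in either direction. Of 15 TNF-induced genes 14 were tested, 0 passed and 9 had a higher mean, with a median log2 fold change of 0.14. Relative to the control mean, the median of this list was 0.31, 0.21 and -0.30 in periodontitis 1 to 3. Only 1 gene of this list had an unadjusted limma p under 0.05, beside 2.11% of all tested genes. That gene was Cxcl1, a neutrophil attractant, with a log2 fold change of 1.92 ± 0.72 (SE, limma). Cxcl1 groups overlapped: periodontitis 2 had 9.73 FPKM, within the control range, and periodontitis 1 and 3 had 105 and 36.3 FPKM, above it. Next in order of p came Irf1, Ccl20 and Icam1, with log2 fold changes of 0.23, 0.51 and 0.26. The summed level of the TNF-induced list was 135 to 166 FPKM in controls and 296, 173 and 137 FPKM in periodontitis 1 to 3. Cxcl1 alone made up 105 of the 296 FPKM in periodontitis 1. Immediate early genes summed to 317 to 492 FPKM in controls and 1476, 465 and 964 FPKM in periodontitis 1 to 3. Their relation to the NF-kappaB genes was not tested.

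**Figure D5:**
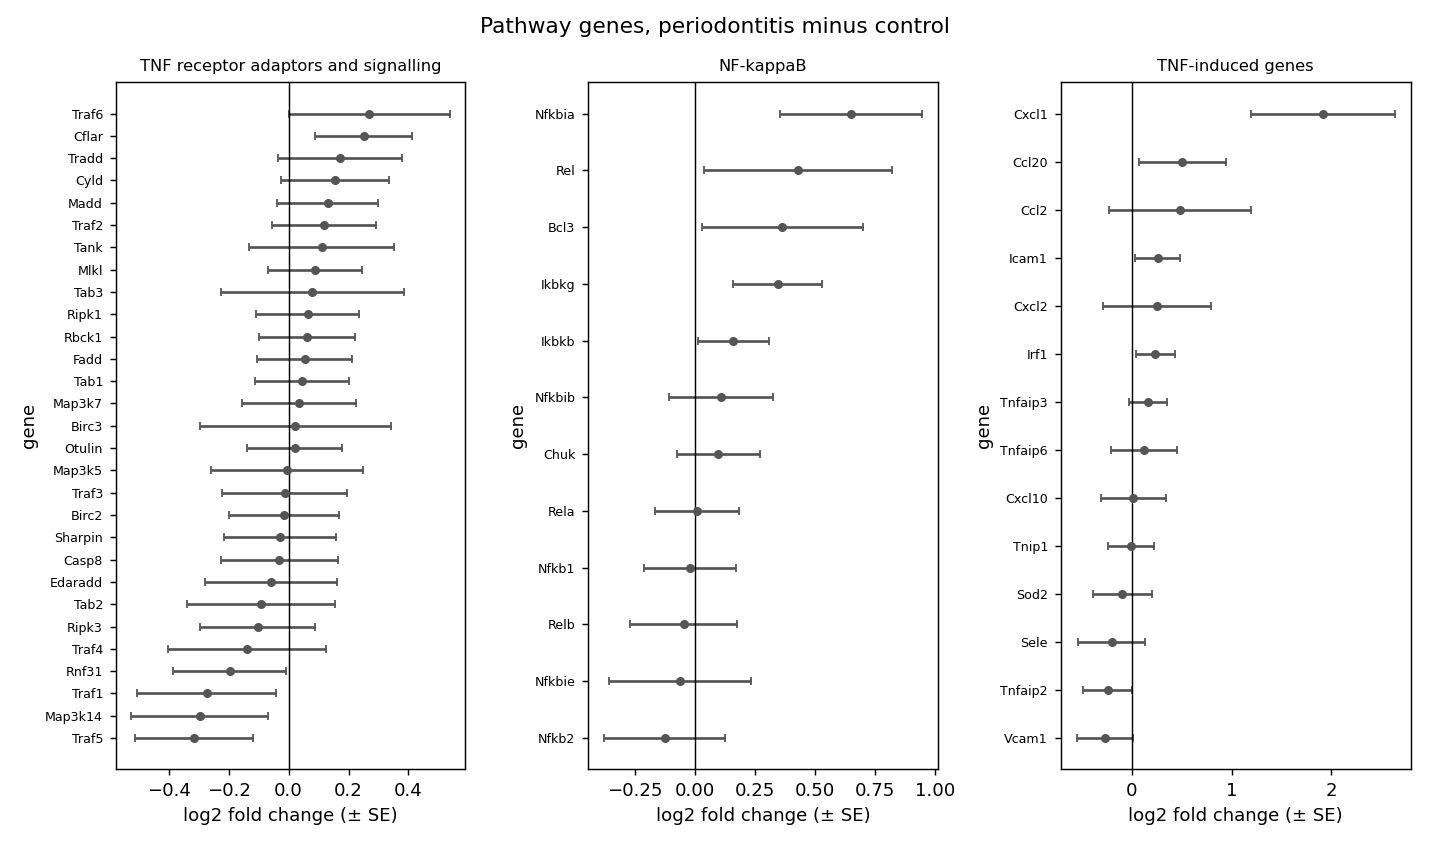
Log2 fold change (x axis, periodontitis minus control, bars are the limma SE) of each tested gene (y axis) in the lists of TNF receptor adaptors and signalling, NF-kappaB and TNF-induced genes. The x axes differ between panels. Values run from -0.31 (Traf5) to 0.27 (Traf6) among adaptors, and Nfkbia (0.65) and Cxcl1 are the highest of their lists.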

How the data were processed

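The authors deposited FPKM, 1 value per gene and library, per the file headers. cutadapt, FastQC, HISAT2 and StringTie are named without versions in the submitters' processing notes. The same notes list the mouse build mm10, but the tables carry rat identifiers. Which rat build was used, the strand and the depth are not stated in the labels or tables, so no counting interval or floor was computed. FPKM is a share of a library total, so abundant gland genes lower all other values.

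From these values log2(FPKM + 1) was computed for the 6 libraries. The 13154 genes that reached 1 FPKM in at least 3 libraries (1251 left out) were fitted with limma 3.58.1 in R 4.3.3, with a mean-variance trend and group as the only term, two-sided. P-values were adjusted by Benjamini-Hochberg over every tested gene, with 0.05 as the threshold. The script was tested on simulated data. Lists are described by counts and medians, without a list test. The members and lists were chosen with earlier results of these data known. Members were given in full where groups did not overlap, for the 8 smallest p, for the 6 highest means and for a set of key receptors and ligands. In each pathway list the 4 smallest p were named, and marker lists are given as sums. Any other gene was named after its values were seen. The alternatives tried were a block for the replicate number, leaving out single libraries, quantile normalization, no filter, a filter at a mean of 5 FPKM, rescaling without gland genes, no trend, a pseudocount of 0.1, a threshold of 0.1 and periodontitis 2 alone. Leaving out control 1 and periodontitis 1 together was added after the data were seen.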

Additional observations from a re-analysis of the deposited data

How the results depend on the processing

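In every setting run, 0 members and 0 of the adaptor genes passed an adjusted p of 0.05, and 0 members passed 0.1 with all libraries. The smallest adjusted p of a member was 0.594, without periodontitis 3. At an unadjusted threshold of 0.05, limma called 0 members with all libraries, beside 2.11% of all tested genes. It called 1 member (Tnfsf10) without periodontitis 2, and 1 adaptor gene without periodontitis 3. The share of all genes called in those fits was not computed. With the replicate number as a block, 0 members passed. The 14 of 21 with a lower mean could not change there, because each number occurs once in each group. Equal numbers were not taken as pairs: their deviations from the group means had correlations of 0.09, 0.03 and 0.46, and only for number 3 were both libraries most like each other. The count of members with lower means (14) became 4 of 7 under the filter at a mean of 5 FPKM, 7 with periodontitis 2 alone and 6 without control 1 and periodontitis 1, and ran from 10 to 17 with each library left out. The median log2 fold change (-0.12) ran from -0.24 to 0.02 with each library left out and was 0.10 with periodontitis 2 alone, a library with no spread of its own that was assumed to vary like the controls and that moved the median of all genes by 0.13. The count without overlap (2, beside 5.56% of all tested genes) became 0 under that filter, 1 after quantile normalization and 1 with gland rescaling. It became 10 with periodontitis 2 alone (3 below and 7 above all controls, beside 12.8% and 38.9% of all tested genes). Without control 1 and periodontitis 1 it was 7. It ran from 3 to 4 with each library left out (4 without control 2, control 3, periodontitis 2 or periodontitis 3). Fewer libraries make separation easier. Apart from periodontitis 2 alone, the share over all tested genes was not computed for these settings. With each library left out, Tnfsf13b and Tnfrsf25 stayed among the members without overlap. This was fixed in advance, because leaving out a library cannot make separated groups overlap. After quantile normalization only Tnfrsf25 stayed without overlap, and with gland rescaling only Tnfsf13b. The planned comparison of the RANK ligand with Tnfrsf11b was not run. Depth is unknown, so its limit on the low members could not be given.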

Other observations

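Of 4 further superfamily genes whose names fall outside the naming rule, 3 were listed and 2 tested, and those 2 were also low. The ligand Tnf falls outside the rule too and was not among the 4. Relt, a receptor of the family, had 1.58, 1.17 and 1.09 FPKM in controls and 0.549, 0.985 and 1.01 FPKM in periodontitis, without overlap (log2 fold change -0.31 ± 0.22, SE, limma adjusted p rounding to 1.0). Over all tested genes, 3.59% were lower in periodontitis without overlap. Ngfr, the low-affinity neurotrophin receptor, ran from 2.04 to 3.19 FPKM in controls and from 1.76 to 3.06 FPKM in periodontitis. Its groups overlapped.

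The spread between periodontitis libraries was larger than that between controls in 13 of the 21 tested members (61.9%, SD of log2 values), beside 81.1% of all tested genes. The 27 members together made up 0.0228% to 0.0278% of the FPKM sum in controls and 0.0223% to 0.0272% in periodontitis. The sum of the 8 ligands was 41.6 to 56.9 FPKM in controls and 27.3, 49.2 and 57.1 FPKM in periodontitis 1 to 3, so that periodontitis 1 was the lowest library for ligands. The sum of the 19 receptors was 102 to 122 FPKM in controls and 113, 117 and 97.0 FPKM in periodontitis 1 to 3, where periodontitis 1 lay within the control range.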
